A study of Mus musculus with 76 samples.

Results

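Laminins are the large glycoproteins on which basement membranes, the thin sheets of matrix under epithelia and around nerve, muscle and vessels, are built. Each is a cross-shaped trimer of 1 alpha, 1 beta and 1 gamma chain, and the trimer takes its name from its chains. Laminin-111, for example, joins the products of Lama1, Lamb1 and Lamc1 and is the laminin of the early embryo. The alpha chain carries the domains that bind integrins and glycosylated dystroglycan on the cell surface, and the trimers knit into a network that collagen IV, nidogens and perlecan complete. In the nervous system laminins guide neural progenitors and axons, and laminin is a common coating for neurons in culture. The genes described here are the 9 laminin chains listed beforehand, namely Lama1, Lama2, Lama3, Lama4, Lama5, Lamb1, Lamb2, Lamb3 and Lamc1, all 9 of which were found by symbol among the 38924 genes of the count table. They were picked by family and not by how they changed.

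Mouse embryonic stem cells of 2 inbred strains were turned into neural cultures. One strain was C57BL/6J (B6), a common laboratory strain, and the other WSB/EiJ (WSB), which derives from wild mice. Cultures were sampled at 3 stages, neural progenitor differentiation, neuronal maturation and axonal regrowth, as bulk polyadenylated RNA. Within each strain and stage, control cultures stood beside cultures given ID-8, a small molecule that inhibits the protein kinase DYRK1A. At the axonal regrowth stage each of these was either left uncut or axotomized (cut). The progenitor stage had 6 libraries in each of its 4 groups, and maturation had 4 in each of 4 groups. The regrowth stage had 4 in each of 8 groups, except for 3 in WSB ID-8 uncut and in B6 ID-8 cut. The labels name no dose, no day of collection and no number of stem cell lines per strain. Whether replicate libraries came from separate cultures is stated nowhere in the labels, so the p-values measure the spread between these libraries, which may be partly technical. Library totals in megacounts (M) of expected counts ran from 22.88 to 131.49 M at the progenitor stage, from 25.12 to 41.74 M at maturation and from 20.37 to 99.19 M at axonal regrowth.

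Some libraries stood apart from their labels. Over 83 genes that differed at least 8-fold between the strains in control progenitor and control mature cultures, 49 of the 50 libraries that had no part in choosing the genes read nearer to their own strain. The library labelled WSB ID-8 cut replicate 3 read nearer to B6 for 83 of 83. It had 100.3 CPM (counts scaled by the size of the library) of Kpna2, an importin gene, where the other libraries of WSB culture sets 1 to 3 had 1.65 to 4.03 CPM and those of B6 had 80.6 to 138.9. The culture names in the labels sort the regrowth libraries into 4 sets per strain. The 4 libraries of WSB set 4, the only regrowth libraries with the library number 18 that the maturation libraries also carry, read 4.41 to 9.01% of the B6 level over 13 genes high in B6. In the other libraries of WSB sets 1 to 3 this value was -0.55 to -0.05%. Some results at the regrowth stage are therefore also given without these libraries. The list and marker calls keep the library labelled WSB ID-8 cut replicate 3 as WSB. So do the means of its group and the fits between stages. Summed CPM of 6 neuronal markers (Map2, Tubb3, Rbfox3, Snap25, Syn1 and Stmn2) ranged from 249 to 3513 at the progenitor stage and from 1937 to 5522 at regrowth. Of 5 astrocyte markers, 5 of 5 were higher at regrowth than at the progenitor stage in B6.

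Levels are CPM on totals scaled with TMM factors over all 70 libraries, and errors after them are standard deviations (SD). Differences between groups are log2 values from edgeR's quasi-likelihood test, with standard errors after ±. A chain was called at a Benjamini-Hochberg adjusted p under 0.05 over all genes tested. All 9 chains passed the filter on low counts in every comparison. The RNA was bulk, so fewer cells of a type and less RNA per cell cannot be told apart. Levels of different chains are compared only per kilobase (kb) of the longest annotated transcript, from 4.867 kb for Lamb3 to 11.388 kb for Lama5.

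The promoters of 3 chains are shown because these chains carried the contrasts described below. Lamb1 and Lamb2, the main beta chains, moved in opposite directions with ID-8 in B6 progenitors, and Lama5 changed most with ID-8 at maturation. The bases lie just upstream of each gene's annotated transcripts, in build GRCm38, from the RefSeq promoter table of GRCm38.p6, which holds 5 of the 9 chains. Capitals mark matches to the GC box GGGCGG or to the CCAAT box, on either strand.
Lamb1, chr12:31265043-31265233, plus strand: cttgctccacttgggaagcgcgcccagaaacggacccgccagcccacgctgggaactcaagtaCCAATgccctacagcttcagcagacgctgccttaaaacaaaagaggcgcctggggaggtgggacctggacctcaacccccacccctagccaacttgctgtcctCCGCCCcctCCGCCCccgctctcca
Lamb2, chr9:108479612-108479735, plus strand: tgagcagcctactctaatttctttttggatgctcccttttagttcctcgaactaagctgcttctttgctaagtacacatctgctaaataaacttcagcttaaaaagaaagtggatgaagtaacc
Lama5, chr2:180225860-180226109, minus strand: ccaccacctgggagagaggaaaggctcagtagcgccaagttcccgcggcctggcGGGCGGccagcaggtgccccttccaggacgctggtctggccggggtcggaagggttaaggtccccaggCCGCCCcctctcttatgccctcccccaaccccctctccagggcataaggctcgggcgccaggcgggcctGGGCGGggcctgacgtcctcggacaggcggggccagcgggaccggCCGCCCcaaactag
The windows differ in base composition, with 63.9% G and C in Lamb1, 37.9% in Lamb2 and 72.4% in Lama5. Lamb1 held 2 GC boxes and 1 CCAAT box, which 23.1% and 26.9% of 32851 RefSeq promoters hold at least once in the same window. Lama5 held 4 GC boxes (32.7% of promoters have 1 or more in its window) and no CCAAT box (33.8%). Lamb2 held neither (13.3% and 16.7%). The TATA box TATAAA and the GATA motif AGATAA were not found in any of the 3 windows. Among all promoters 6.22 to 12.4% and 5.57 to 9.99% hold them in windows of these lengths. Each window was the first 191 (Lamb1), 124 (Lamb2) or 250 (Lama5) of the 250 bases upstream of a promoter's RefSeq start. The shares beside Lamb1 and Lamb2 therefore leave out the bases nearest that start in all promoters. The windows of these 2 chains end where annotated transcripts begin, so the shares are no matched background for them. A match or its absence describes these letters only.

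The levels of the chains differed widely. Per kb, Lamc1 led in control progenitors of both strains, at 50.9 ± 18.2 CPM per kb in B6 and 19.8 ± 5.35 in WSB (SD, n = 6). In B6 it was followed by Lamb1 (36.6 ± 15.8), Lama5 (15.9 ± 6.45), Lama1 (12.4 ± 6.06) and Lamb2 (11.9 ± 1.74). The ranges of the mean ± SD of neighbours in this order overlapped, those of Lamb1 and Lama5 only at their ends. In WSB progenitors the next in order were Lama1 (12.1 ± 5.07), Lamb1 (10.3 ± 2.02), Lamb2 (10.0 ± 3.40) and Lama5 (5.28 ± 1.56), of which the first 3 did not differ beyond their spread. Lama2, Lama3, Lama4 and Lamb3 stayed at 0.114 to 1.08 CPM per kb in control progenitors. At maturation the order was another, with Lamb2 first in control cultures of both strains, at 33.2 ± 11.3 CPM per kb in B6 and 38.7 ± 8.87 in WSB (n = 4). Lamc1 followed at 28.6 ± 9.02 and 26.3 ± 3.16, within the spread of Lamb2 in B6. In uncut B6 control cultures at regrowth Lamc1 (95.4 ± 68.7), Lamb1 (82.6 ± 71.1) and Lama1 (50.8 ± 56.0) led again, with spreads nearly as large as the means. Lamb3, a chain of epithelial laminin-332, read 0.162 to 3.15 CPM in every library of the study. Its counts per library began at 8, so its values are the least precise of the family.

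The chains also differed in how far they moved across the 16 groups. The ratio of the highest to the lowest group mean was 93.8 for Lama1, 57.1 for Lama2, 41.2 for Lamb1 and 27.0 for Lama4. It was 10.8 for Lamc1, 8.57 for Lama3, 8.42 for Lamb3, 7.63 for Lama5 and 5.82 for Lamb2. The highest mean of Lama1, Lamb1 and Lamc1 was in B6 progenitors with ID-8, and that of Lama2, Lama3 and Lamb2 in WSB control cultures at maturation.

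**Figure D1:**
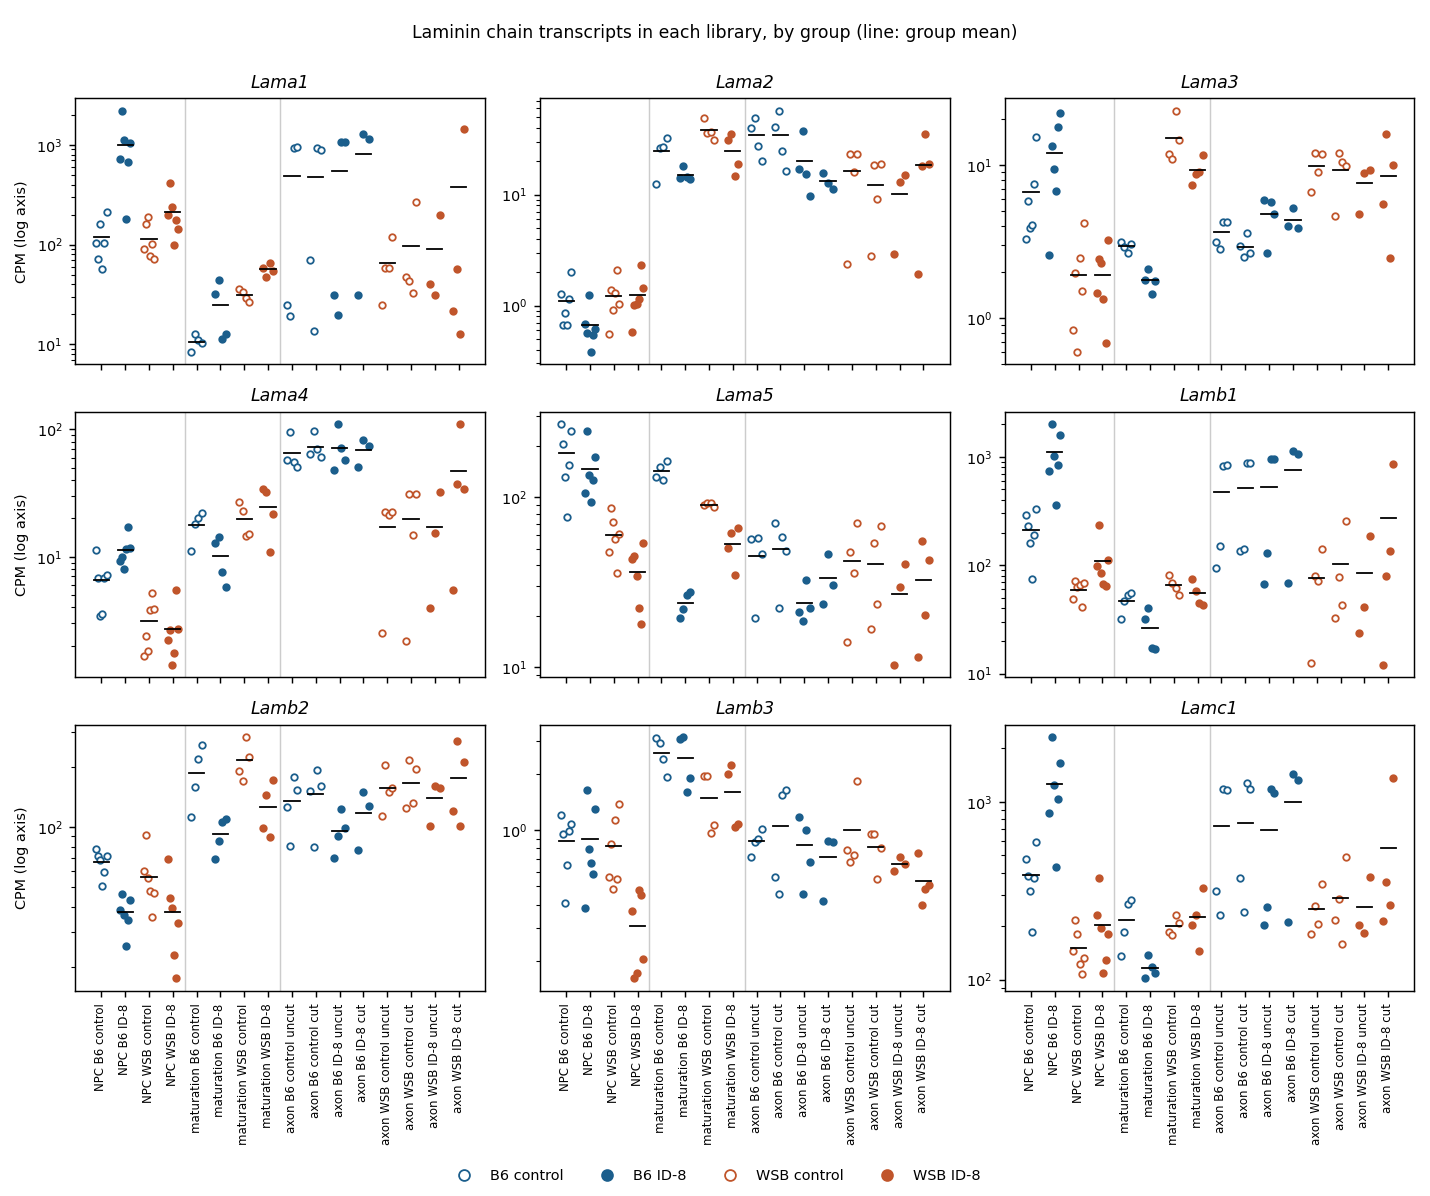
Level of each laminin chain in every library in CPM (log axis), for the 16 groups in order of stage, strain and treatment. Points are libraries (blue B6, orange WSB, open control, filled ID-8) and lines are group means. Lama1, Lamb1 and Lamc1 are highest in B6 progenitors with ID-8 and split into low and high libraries at axonal regrowth.

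The first comparison asks how the strains differ as untreated progenitors. WSB had less of the transcripts of 5 chains, namely Lamb1, Lamc1, Lama5, Lama3 and Lama4, and no chain was called higher. The background in this comparison was wide, since 44.8% of the 17512 genes tested were called. The median difference of the 9 chains was -1.16 on the log2 scale, against -0.00 over all genes. Lamb1, the beta chain of embryonic laminins, had a lowest, median and highest level of 74.6, 210.3 and 327.2 CPM in B6 and of 41.3, 64.1 and 70.8 in WSB, a log2 difference of -1.79 ± 0.37 (adjusted p = 0.0005). Every WSB library lay below every B6 library for Lamb1. Lamc1, the gamma chain of nearly all laminins of neural tissue, had 186.3, 377.8 and 594 CPM in B6 and 107.7, 138.6 and 216.7 in WSB (-1.38 ± 0.30, adjusted p = 0.000887). The groups overlapped only through the lowest B6 library and the highest WSB library. Lama5, the alpha chain of most epithelial basement membranes, had 76.4, 181.2 and 272 CPM in B6 and 36.2, 59.0 and 86.6 in WSB (-1.57 ± 0.29, adjusted p = 0.000161). Lama3, the alpha chain of laminin-332, had 6.67 ± 4.53 CPM in B6 libraries and 1.93 ± 1.30 in those of WSB (-1.77 ± 0.47, adjusted p = 0.00406), and Lama4, the alpha chain of vessels and peripheral nerve, read 6.53 ± 2.91 and 3.13 ± 1.40 CPM (-1.16 ± 0.32, adjusted p = 0.00578). Lama1 was not called, at 118.4 ± 57.7 CPM in B6 and 115.03 ± 48.3 in WSB. Its difference of -0.13 had a 95% interval from -0.87 to 0.61. Lama2, Lamb2 and Lamb3 were not called either, at differences of 0.15, -0.26 and -0.11.

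The progenitor libraries carry 2 library numbers in their titles, 12 for replicates 1 to 3 and 16 for replicates 4 to 6. Within number 12 the differences of Lamb1, Lamc1, Lama5, Lama3 and Lama4 were -1.92, -1.14, -1.59, -1.94 and -1.90, and within number 16 they were -1.72, -1.63, -1.59, -1.69 and -0.42. Lamb1 (adjusted p = 0.0597), Lama3 (adjusted p = 0.104) and Lama4 (adjusted p = 0.481) were no longer called in edgeR within number 16 alone, so 2 of 9 chains were called there. Markers of other cells differed between the strains as well. Of 7 pluripotency markers 7 were lower in WSB, with a summed level of 430 to 1239 CPM in B6 and 36.2 to 71.8 in WSB. Of 6 epithelial markers tested 5 were lower (435 to 2063 CPM for the 7 of the list in B6 and 122 to 457 in WSB), of 6 trophoblast markers 5, of 7 endothelial markers 4, and of 7 endoderm markers 2. The part of these cells in the chain differences was not tested.

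Genes of 5 related lists are described after the chains of each comparison, whichever way they moved. Those named are among the genes with the smallest adjusted p of their list. The share of all genes called, given with the chains, is the background for the list counts too. Of 24 partners 12 were lower and 1 higher in WSB progenitors, with a median of -0.59. They included Hspg2 (-1.51), which encodes perlecan, Tinagl1 (-2.60), Nid1 (-1.57), the nidogen that ties laminin to collagen IV, and Egfl6 (-1.35). Of 15 laminin receptors 7 were lower and 1 higher, among them the syndecan Sdc4 (-2.64) and the integrin subunits Itga3 (-1.32), Itga6 (-1.41) and Itga9 (-0.78). Of 17 tested genes that link laminin receptors to the cytoskeleton 7 were lower and 0 higher, led by the dystrophin gene Dmd (-0.84), the talin Tln1 (-1.21), Ctnna1 (-0.83) and the utrophin gene Utrn (-0.68). Of 18 genes that glycosylate dystroglycan 2 were higher, among them Pomk (0.46), and 3 lower, among them Large2 (-2.01) and Gmppb (-0.55). Of 7 laminin relatives tested, 1 was called, the netrin-G gene Ntng2 (1.19).

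ID-8 changed 4 chains in B6 progenitors. Transcripts of all 3 chains of laminin-111 rose, Lama1 the most, and those of Lamb2, the beta chain typical of synapses and mature basement membranes, fell. In this comparison 40.1% of the 17512 genes were called. Lama1 read 104.2, 72.3, 159.6, 57.5, 104.6 and 211.9 CPM in the 6 control libraries and 730.3, 2210, 1127, 180.2, 678.1 and 1051 CPM in the 6 with ID-8. Only replicate 4 of the ID-8 group came down into the range of the controls. The log2 difference of Lama1 was 2.88 ± 0.41 (adjusted p = 2.31e-05). Lamb1 read 290.2, 230.4, 158.7, 74.6, 190.1 and 327.2 CPM in control and 744.1, 2021, 1023, 356.1, 838.8 and 1600 with ID-8 (2.31 ± 0.37, adjusted p = 9.23e-05), and these groups did not overlap. Lamc1 rose from 387.8 ± 139 to 1256 ± 662 CPM (1.60 ± 0.30, adjusted p = 0.000382). Lamb2 fell from 66.7 ± 9.77 to 37.4 ± 7.36 CPM (-0.89 ± 0.19, adjusted p = 0.00119), with a lowest control library of 51.0 and a highest ID-8 library of 46.5. All 4 chains were called within library number 12 and again within number 16, at 3.55 and 2.33 for Lama1, 2.43 and 2.22 for Lamb1, 1.86 and 1.41 for Lamc1, and -0.89 and -0.85 for Lamb2. Lama5 (-0.35), Lama4 (0.66), Lama3 (0.82), Lama2 (-0.69) and Lamb3 (-0.00) were not called. The median of the 9 chains was 0.66, against -0.03 over all genes.

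The make-up of the family shifted with these changes. Per kb, Lamb1 exceeded Lamb2 by 1.42 to 4.43 times in B6 control progenitors and by 13.6 to 42.3 times with ID-8. Lama1 held 41.1% ± 11.1 of the summed alpha-chain level per kb in control and 82.9% ± 9.99 with ID-8 (SD, n = 6), while the share of Lama5 was 52.7% and 13.4%. The 2 ranges of the Lama1 share, 27.6 to 56.9% and 63.5 to 90.4%, did not overlap. The sum of the 5 alpha chains stood in a narrow ratio to the single gamma chain Lamc1, at 0.544 to 0.709 per kb in control and 0.531 to 0.841 with ID-8. These shares are descriptions and were not tested.

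**Figure D2:**
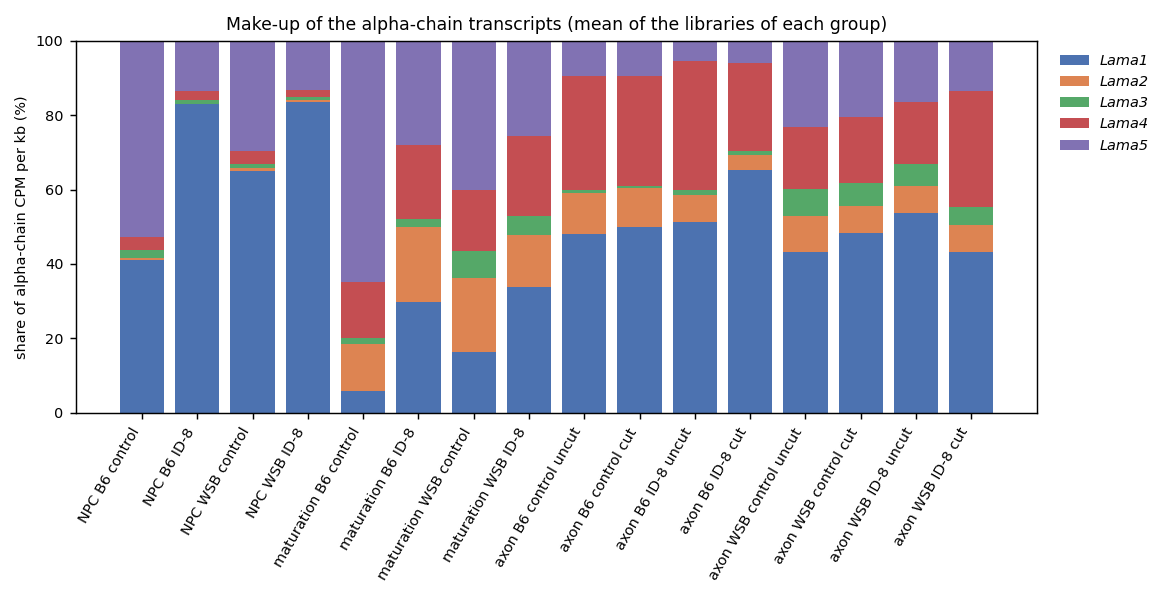
Share of each alpha chain in the summed alpha-chain level (CPM per kb of longest transcript, percent), as the mean over the libraries of each of the 16 groups. Lama1 holds 82.9% in B6 and 83.5% in WSB progenitors with ID-8, and Lama5 holds 64.9% in B6 control cultures at maturation.

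Other cell types moved with the laminin-111 chains. Of 7 endoderm markers (Gata4, Gata6, Sox17, Sox7, Foxa2, Dab2 and Ttr) 6 were higher with ID-8 in B6 progenitors and 0 lower, and their summed level was 39.5 to 72.9 CPM in control and 156.6 to 1320 CPM with ID-8. Dab2, an endocytic adaptor abundant in extraembryonic endoderm, made up most of it, at 19.1 ± 10.7 and 493.1 ± 324.5 CPM. None of the 7 was at 0 in the ID-8 group, where the lowest, Ttr, began at 0.844 CPM, and Ttr was at 0 in some control libraries. Gata4 read 4.63 ± 2.05 and 86.8 ± 55.6 CPM. The ID-8 library with the least Lama1, replicate 4, was also the one with the least of the summed markers. Parietal endoderm is known for depositing laminin-111. Of 9 markers of mural cells and fibroblasts 6 were higher (128.6 to 284.8 CPM in control and 332.1 to 1578 with ID-8), and of 7 pluripotency markers 5 were (430 to 1239 and 982 to 2493 CPM). Of 3 astrocyte markers tested 2 were higher and 1 lower, and the 5 of the list summed to 30.8 to 43.4 CPM in control and 109.1 to 247.0 with ID-8. Of 6 trophoblast markers 4 were lower, as were 2 of 6 neuronal markers and 2 of 6 progenitor markers. The part of these cells in the rise of the chains was not tested.

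**Figure D3:**
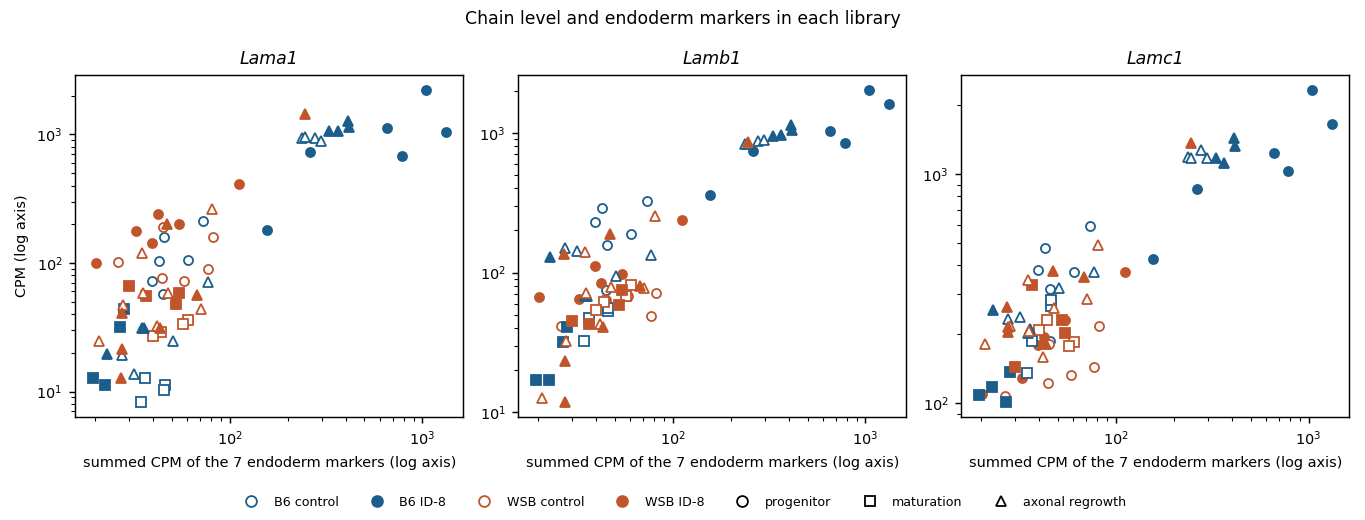
Level of Lama1, Lamb1 and Lamc1 (CPM, log axis) against the summed level of 7 endoderm markers (CPM, log axis) in each of the 70 libraries. Circles are progenitor, squares maturation and triangles axonal regrowth libraries, blue B6 and orange WSB, open control and filled ID-8. B6 progenitors with ID-8 have marker sums of 156.6 to 1320 CPM and Lama1 of 180.2 to 2210 CPM, both above the B6 control medians.

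Among basement membrane partners 7 of 24 rose and 4 fell with ID-8 in B6 progenitors. The collagen IV chain Col4a1 (2.13), Sparc (2.35), which binds collagen IV, and Egfl6 (1.92) rose with the laminin-111 chains, and Frem2 (-2.13), a chain of the Fraser complex, fell. Of 15 receptors only 3 were called, Rpsa (0.55), which encodes the ribosomal protein also named the laminin receptor, the syndecan Sdc2 (0.88), and Sv2a (-1.23). Of 18 glycosylation genes 3 were lower, among them Ispd (-0.75) and B4gat1 (-0.40), and Gmppb was higher (0.39). Of 17 cytoskeletal linkers 2 were higher and 5 lower, including Dst (-0.80), the sarcoglycan Sgcb (-0.50) and Parva (-0.46). Of 7 relatives the axon guidance gene Ntn1 was lower (-1.59).

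In WSB progenitors ID-8 gave 2 called chains, Lamb2 and Lamb3, both lower, while 9.46% of the 17512 genes were called. Lamb2 fell from 56.3 ± 19.2 to 37.7 ± 18.3 CPM (SD, n = 6; -0.65 ± 0.19, adjusted p = 0.0346), with overlapping groups. Lamb3 fell from 0.821 ± 0.361 to 0.307 ± 0.145 CPM (-1.47 ± 0.40, adjusted p = 0.0229), and its groups did not overlap, but the ID-8 libraries held only 8 to 27 counts each. Within library number 12 these differences were -0.45 and -1.45, within number 16 they were -0.86 and -1.47, and neither chain was called in edgeR in either (adjusted p = 0.488 and 0.354, and 0.157 and 0.217). Lama1 read 90.2, 160.4, 189.1, 76.5, 101.9 and 72.1 CPM in control and 199.9, 411.9, 241.4, 100.4, 177.6 and 142.7 with ID-8. Each ID-8 replicate was above the control replicate of the same number, but within library number 16 the replicate number is not known to pair cultures. The groups overlapped and the difference of 0.84 ± 0.38 was not called (adjusted p = 0.176). Lamb1 (0.81 ± 0.36, adjusted p = 0.169) and Lamc1 (0.37 ± 0.30, adjusted p = 0.488) were not called. The endoderm markers gave 2 higher and 1 lower of 7 in WSB, with summed levels of 26.4 to 81.5 CPM in control and 20.1 to 111.8 with ID-8. Sums of 3 other lists did not overlap between the groups. Pluripotency markers, 7 of 7 higher, summed to 36.2 to 71.8 CPM in control and 83.7 to 436.0 with ID-8. Trophoblast markers, 3 of 6 lower, summed to 13.8 to 62.6 and 0.403 to 2.34 CPM. Endothelial markers, 2 of 7 higher and 2 lower, summed to 26.4 to 73.4 and 8.23 to 20.3 CPM. Their part in the chain differences was not tested. ID-8 replicate 2 was the highest library for Lama1, Lamb1 (236.6 CPM) and Lamc1 (374.6).

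The difference between the strains' responses was tested directly. Lama1 was the 1 chain of 9 called, with a response smaller in WSB by 2.05 ± 0.54 on the log2 scale (adjusted p = 0.0383), where 3.17% of all genes were called. The value was -2.60 within library number 12 and -1.61 within number 16, and edgeR called it in neither (adjusted p = 0.267 and 0.354). Lamb1 (-1.50 ± 0.50, adjusted p = 0.098) and Lamc1 (-1.23 ± 0.42, adjusted p = 0.0995) were not called. The response of Lamb2 did not differ detectably between the strains, with a 95% interval of the difference from -0.29 to 0.77.
Among the partners Sparc (-2.31), Nid2 (-1.68) and Smoc2 (-2.18) also responded less in WSB and Smoc1 (1.55) more, 4 of 24 in all. In WSB alone, Smoc1 (1.011), Fbln2 (-0.98) and Frem2 (-1.04) were the partners called with ID-8, and Bcam (-1.77), a receptor of Lama5 laminins, and Itga3 (-0.79) were the receptors. The difference of responses was called for 1 of 15 receptors, Bcam (-1.46), and 1 of 18 glycosylation genes, Ispd (0.89).

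**Figure D4:**
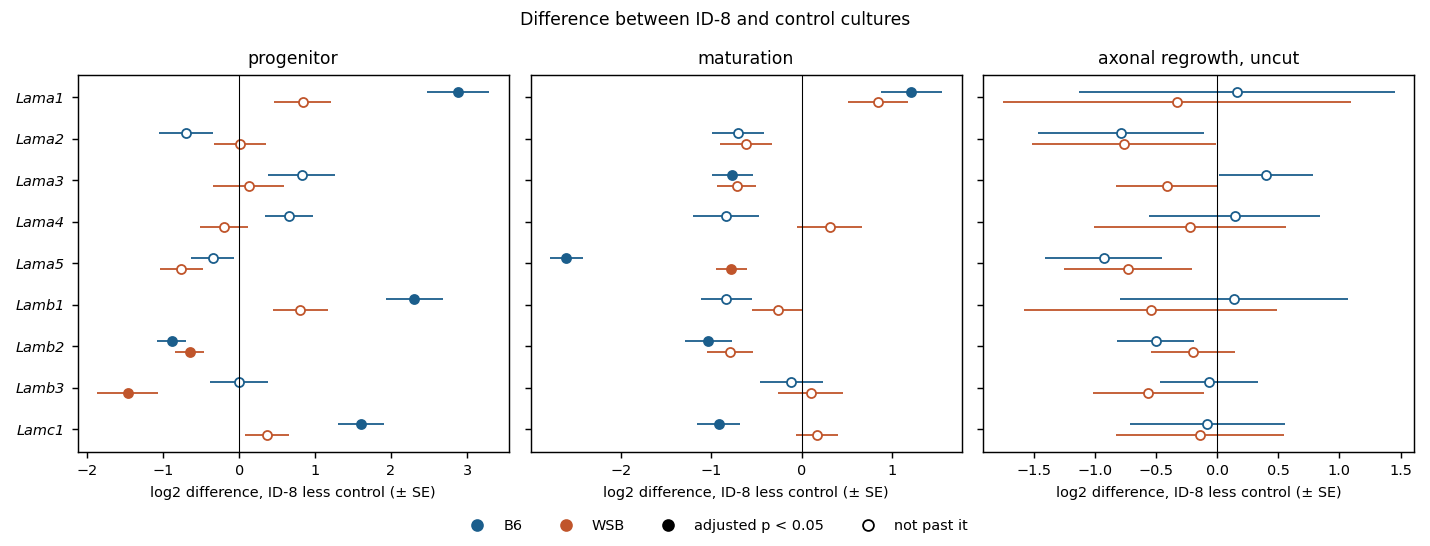
Log2 difference of each chain between ID-8 and control cultures, with its standard error, at the progenitor, maturation and axonal regrowth (uncut) stages in B6 (blue) and WSB (orange). Filled points passed an adjusted p of 0.05. Lama1, Lamb1 and Lamc1 are to the right in B6 progenitors and Lama5 is to the left in both strains at maturation.

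At maturation the strains differed in other chains than as progenitors. Control cultures of WSB had more Lama1 and Lama3 and less Lama5 than those of B6, and in each case no libraries overlapped. These 3 calls of 9 stand against 14.8% of the 16954 genes tested. Lama1 read 8.35, 12.7, 11.2 and 10.3 CPM in B6 libraries and 35.9, 33.6, 28.9 and 27.0 in WSB libraries (1.56 ± 0.34, adjusted p = 0.00579). Lama3 read 3.17, 2.94, 2.66 and 3.08 CPM in B6 libraries and 11.9, 11.1, 22.9 and 14.8 in WSB libraries (2.35 ± 0.23, adjusted p = 2.92e-06), the opposite sign to the progenitor stage. Lama5 read 131.2, 150.2, 126.4 and 164.5 CPM in B6 libraries and 90.02, 92.9, 92.5 and 87.5 in WSB libraries (-0.66 ± 0.17, adjusted p = 0.0161). Lamc1 (-0.12), Lamb1 (0.50), Lamb2 (0.22), Lama2 (0.64), Lama4 (0.15) and Lamb3 (-0.81) were not called. With the letter run of the culture names (described below for ID-8) as a block, 27.2% of genes were called, and Lamb3 too (-0.86 ± 0.18, adjusted p = 0.00271). Between the strains, though, libraries of the same run deviated together less regularly, with correlations above 0.1 in 25 of 32 pairs and a lowest of -0.082. Of the markers of mural cells and fibroblasts 5 of 9 were higher in WSB (summed 1981 to 2782 CPM in B6 and 2192 to 5264 in WSB) and 2 of 5 epithelial markers tested were lower (10.3 to 59.2 and 9.72 to 13.1 CPM). Their part in the chain differences was not tested. Of 24 partners 3 were higher, Agrn (0.49), Smoc1 (0.98) and Egfl6 (2.16). Receptors gave 2 higher, Sdc2 (0.82) and Itga2 (1.00), and 2 lower, Itga3 (-0.86) and Sdc4 (-0.74), of 15. Of 17 glycosylation genes 3 were higher, among them Ispd (0.86) and Pomgnt2 (0.80).

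With ID-8, 4 of 9 chains were lower in mature B6 cultures, Lama5 with the largest difference, and 1 was higher. Lama5 read 131.2, 150.2, 126.4 and 164.5 CPM in control and 19.5, 22.0, 26.7 and 27.6 with ID-8, with no overlap. Its log2 difference was -2.60 ± 0.18 (adjusted p = 5.98e-07). These 5 calls stand beside 17.1% of the 16954 genes. Lamb2 read 112.5, 159.5, 219.7 and 256.7 CPM in control and 69.4, 85.1, 106.3 and 109.7 with ID-8 (-1.03 ± 0.26, adjusted p = 0.0128), so the highest ID-8 library stayed just under the lowest control. Lamc1 read 135.8, 186.3, 266.3 and 282 CPM in control and 101.7, 136.8, 117.6 and 109.1 with ID-8 (-0.92 ± 0.24, adjusted p = 0.0145). Without control replicate 4 Lamc1 was not called (-0.75, adjusted p = 0.0536). Lama3 fell from 2.96 ± 0.22 to 1.77 ± 0.27 CPM (SD, n = 4; -0.77 ± 0.23, adjusted p = 0.0302), and lost its call without any one of control replicates 1, 2 and 4 or ID-8 replicates 1, 3 and 4 (adjusted p from 0.0556 to 0.0754). Lama1 alone was higher, with 31.8, 43.9, 11.3 and 12.7 CPM against 8.35, 12.7, 11.2 and 10.3 in control (1.22 ± 0.34, adjusted p = 0.0222). Replicates 1 and 2 carried this difference, and without either of them, or without control replicate 1 or 4, it was not called (adjusted p = 0.0516 to 0.0912).

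The culture names at maturation carry letters in 2 runs of the alphabet, with replicates 1 and 2 in the first and 3 and 4 in the second, and within a strain libraries of the same run deviated together. With this letter run as a block, 28.4% of genes were called, and 7 chains, Lamb1 (-0.94 ± 0.24, adjusted p = 0.00812) and Lama4 (-0.98 ± 0.30, adjusted p = 0.0226) in addition. Other cells moved too. Of 5 epithelial markers tested 4 were lower with ID-8 (summed 10.3 to 59.2 CPM in control and 2.73 to 10.51 with ID-8), and of 9 markers of mural cells and fibroblasts 2 were (1981 to 2782 and 497.7 to 865.9 CPM). Of 6 endoderm markers tested 3 were higher and 1 lower, with sums of 34.4 to 45.8 and 19.4 to 28.0 CPM. Of 3 tested oligodendrocyte and Schwann cell markers 3 were higher. The part of these cells was not tested.

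Collagen IV chains led the partners that fell with the laminins. Of 24 partners 9 were lower and 1 higher, and Col4a3 (-3.42), Col4a4 (-3.14) and Col4a5 (-1.61), the chains of the collagen IV network of mature basement membranes such as that of the kidney, had the smallest p beside Hspg2 (-1.67). Of 15 receptors 6 were lower and 0 higher, led by Itga3 (-1.07), the shared integrin subunit Itgb1 (-1.17), Itga1 (-1.75) and Bcam (-0.91). Of 19 linkers 5 were lower and 0 higher, among them Tln1 (-1.16), Vcl (-1.48), Parva (-0.60) and Fermt2 (-0.64), all parts of integrin adhesions. Of 17 glycosylation genes 2 were higher, among them Dolk (0.32). Of 6 relatives 2 were lower, among them Ntn4 (-1.32), and Ntng1 (1.00) was higher.

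In mature WSB cultures Lama5 was the 1 chain called with ID-8, again lower, while 5.89% of genes were called. It read 90.02, 92.9, 92.5 and 87.5 CPM in control and 50.1, 62.0, 34.9 and 66.0 with ID-8 (-0.78 ± 0.17, adjusted p = 0.0149), with no overlap. Lama1 did not overlap either, at 26.9 to 35.9 CPM in control and 47.8 to 65.8 with ID-8, but its difference of 0.85 ± 0.33 was not called (adjusted p = 0.161). With the letter run as a block, 14.2% of genes were called and Lama3 (-0.71, adjusted p = 0.0314) and Lamb2 (-0.76, adjusted p = 0.0201) joined Lama5. The fall of Lama5 was larger in B6 by a difference of responses of 1.82 ± 0.24 (adjusted p = 0.00316), the 1 chain called among 0.46% of all genes. Lamc1 differed by 1.09 ± 0.33 (adjusted p = 0.222), which was not called. The share of Lama5 in the alpha chains per kb was 64.9% in B6 control and 28.0% with ID-8, and 40.2% and 25.6% in WSB. In WSB 4 of 24 partners were lower and 1 higher, and the former were Col4a3 (-2.21), Col4a5 (-1.49), Col4a4 (-1.87) and Col4a6 (-1.27). Bcam (-1.03) and Itgb1 (-0.70) were the 2 of 15 receptors called, and Ntn4 (-1.21) and Ntng1 (0.96) the 2 of 6 relatives. None of the linkers and glycosylation genes was called. Of the epithelial markers 0 of 5 were called in WSB, and of those of mural cells and fibroblasts 0 of 9. Markers of oligodendrocytes and Schwann cells (1 of 3 tested higher) summed to 38.8 to 52.0 CPM in control and 86.6 to 100.4 with ID-8. Those of astrocytes (1 of 5 higher) summed to 2803 to 3781 and 3933 to 5322 CPM. The part of these cells was not tested.

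At axonal regrowth the laminin-111 chains split by culture set more than by strain or treatment. Lama1 read 13.7 to 70.9 CPM in the 7 libraries of B6 sets 1 and 2 and 889.5 to 1274 CPM in the 8 libraries of B6 sets 3 and 4, with control, ID-8, cut and uncut cultures on both sides. Lamb1 read 67.6 to 150.5 CPM and 829.5 to 1136 CPM, and Lamc1 202.7 to 372.2 and 1123 to 1441 CPM. In WSB sets 1 to 3, leaving out the library labelled WSB ID-8 cut replicate 3, Lama1 read 21.4 to 58.5 CPM, Lamb1 11.9 to 80.3 and Lamc1 159.3 to 356.4 (10 libraries). The 4 libraries of WSB set 4 had 118.9, 265.0, 199.96 and 1429 CPM of Lama1 in the order control uncut, control cut, ID-8 uncut and ID-8 cut. That last library also had 857.0 CPM of Lamb1 and 1364 of Lamc1. The 3 chains of laminin-111 were thus high together in the same libraries.
The endoderm markers had summed levels of 22.9 to 77.2 CPM in B6 sets 1 and 2, 236.9 to 414.0 in sets 3 and 4, 20.9 to 70.5 in WSB sets 1 to 3 without the library named above, and 34.9 to 246.6 in WSB set 4. Endothelial markers (17.9 to 130.4 and 136.0 to 202.3 CPM in the lower and higher B6 sets) and epithelial markers (13.4 to 64.6 and 87.6 to 151.5) differed in the same direction. Neuronal markers (3734 to 5378 and 2708 to 3388 CPM) and astrocyte markers (1759 to 2843 and 1273 to 1538) differed in the opposite direction. Whether any of these cells had a part was not tested. The 24 partners summed to 2794 to 4218 CPM in the lower B6 sets and 9855 to 12981 in the higher, while the 15 receptors summed to 1759 to 2029 and 2023 to 2614. The labels do not say what a culture set marks, and these ranges are descriptions.

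The other chains followed the sets in another way. Lama4 read 47.7 to 109.5 CPM in all 15 B6 libraries, 2.19 to 5.48 in the 4 of WSB set 1 and, without the library labelled WSB ID-8 cut replicate 3, 14.9 to 37.6 in WSB sets 2 and 3. Lama2, the alpha chain of muscle and Schwann cell laminin-211, read 9.75 to 57.3 CPM in B6, 1.93 to 2.90 in WSB set 1 and 9.06 to 23.2 in WSB sets 2 and 3. In WSB set 1 the markers of mural cells and fibroblasts, which include Col1a1 and Pdgfrb, summed to 58.4 to 119.4 CPM, against 1498 to 3286 in WSB sets 2 and 3 and 1813 to 7283 in B6. Lama4, Lama2 and these markers were thus low in the same 4 libraries, and the part of such cells was not tested. The library labelled WSB ID-8 cut replicate 3 had 110.9 CPM of Lama4 and 35.2 of Lama2, above all other WSB libraries of the regrowth stage for both. Lamb2 stayed between 70.2 and 269.0 CPM in all regrowth libraries, and Lama5 between 10.3 and 70.9.

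**Figure D5:**
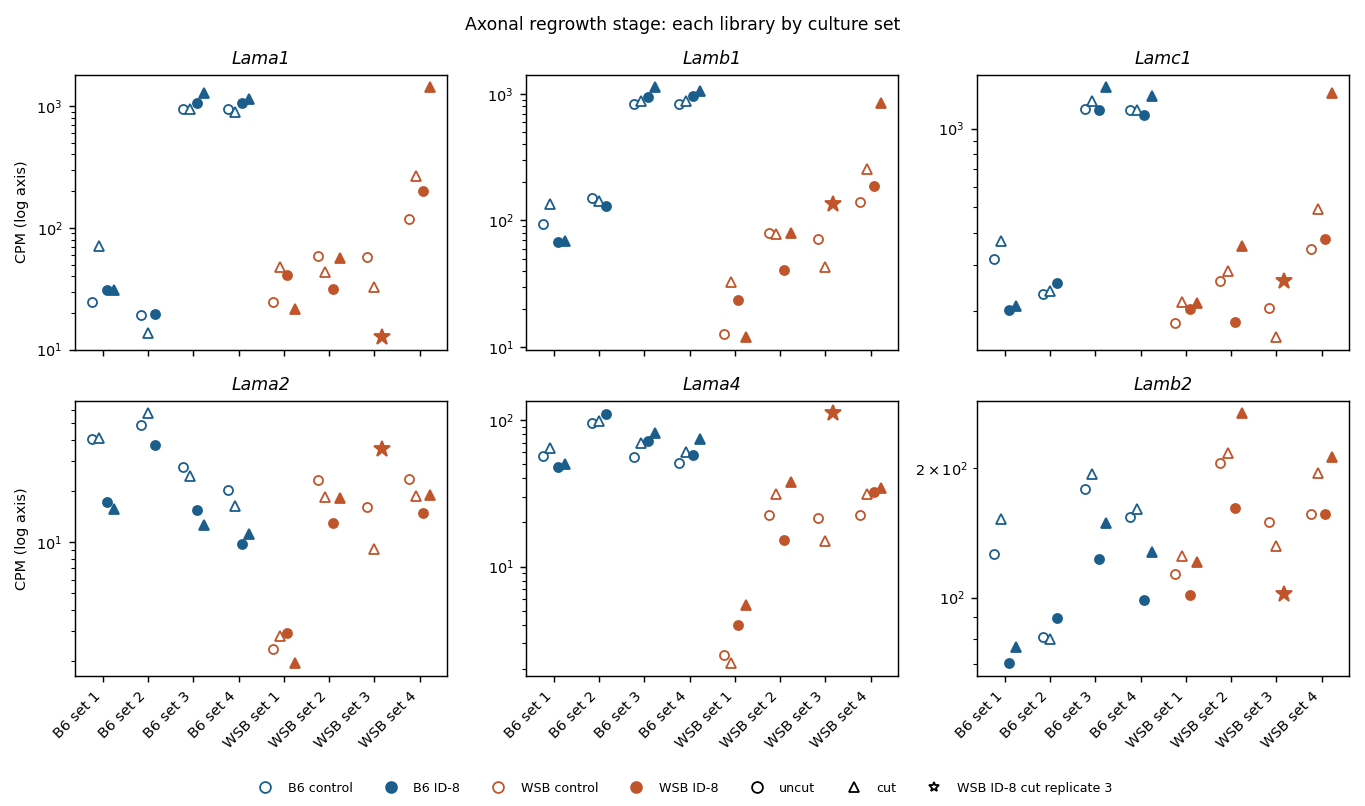
Level of 6 chains (CPM, log axis) in each library of the axonal regrowth stage, by culture set of the labels. Circles are uncut and triangles cut cultures, open control and filled ID-8, and the star is the library labelled WSB ID-8 cut replicate 3. Lama1, Lamb1 and Lamc1 are high in B6 sets 3 and 4, and Lama2 and Lama4 are low in WSB set 1.

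Between the strains, uncut control cultures at regrowth differed in 2 of 9 chains, against 13.2% of the 18106 genes tested. The fit held the library number, in which WSB set 4 differs from all other regrowth sets. WSB set 4 still entered this contrast, through its control uncut library and through the term for that number. Lama3 read 3.16, 2.86, 4.25 and 4.30 CPM in B6 libraries and 6.71, 12.1, 9.02 and 11.9 in WSB libraries (1.30 ± 0.40, adjusted p = 0.0323), with no overlap. Lamb1 read 93.8, 150.5, 829.5 and 837.5 CPM in B6 libraries and 12.6, 78.98, 71.3 and 140.9 in WSB libraries (-3.42 ± 1.03, adjusted p = 0.0294). Lamb1 was not called without B6 replicate 3 or 4 or any one of the 4 WSB replicates (adjusted p = 0.0506 to 0.0785), nor with the doubted library and WSB set 4 left out (-3.21, adjusted p = 0.087). Lama3 was called in the latter (1.29, adjusted p = 0.023) but lost its call without any one of B6 replicates 1, 2 and 4 or WSB replicates 2, 3 and 4 (adjusted p = 0.0504 to 0.104). Lama4 read 56.9, 95.6, 55.5 and 50.5 CPM in B6 and 2.51, 22.4, 21.4 and 22.5 in WSB, without overlap, and missed the threshold (-2.16, adjusted p = 0.0555). It was called with the library labelled WSB ID-8 cut replicate 3 left out (-2.19, adjusted p = 0.0264), as were Lamb1 (-3.41, adjusted p = 0.027) and Lama3 (1.35, adjusted p = 0.008). Of 7 endothelial markers 5 were tested and 4 were lower in WSB, and of 6 epithelial markers 5 were. Over all regrowth libraries but the doubted one, astrocyte markers summed to 1273 to 2843 CPM in B6 and 1161 to 1310 in WSB set 1. They summed to 8413 to 16513.5 in WSB sets 2 and 3 and 6448 to 11610 in set 4. Oligodendrocyte and Schwann cell markers summed to 30.2 to 78.8 CPM in B6, 64.7 to 118.3 in WSB sets 1 to 3 and 222.2 to 652.6 in set 4. The part of these cells was not tested. The partners gave 8 lower, among them Nid1 (-1.34), Smoc2 (-2.87) and Hspg2 (-1.76), and 3 higher with Smoc1 (1.61) first, of 24. Of 15 receptors Sdc1 (-1.84), Itga1 (-1.67) and Itga3 (-0.79) were lower and Itga7 (1.74), the integrin subunit of muscle, higher. Of 19 linkers 3 were higher, among them Sgcb (0.44), of 18 glycosylation genes Large2 was lower (-2.37), and of 6 relatives Ntng2 was higher (1.45).

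Neither ID-8 nor axotomy gave a called chain at this stage. The share of all 18106 genes called by edgeR was 0% for ID-8 in B6, in WSB and for the difference between them, and 0% for cut against uncut in each of B6 control, B6 ID-8, WSB control and WSB ID-8 cultures. At an unadjusted p under 0.05 these 7 comparisons gave 751, 1322, 220, 182, 72, 717 and 1183 genes, and DESeq2 called 20, 70, 10, 1, 2, 8 and 17. Of the chains, 0 of 9 had an unadjusted p under 0.05 in 6 of them, and 1 did in the cut comparison of WSB ID-8 cultures, Lama4 at 1.79 ± 0.83. Lama4 read 4.00, 15.2 and 32.4 CPM in the uncut and 5.48, 37.6, 110.9 and 34.2 in the cut libraries there, of which the 110.9 belongs to the library labelled WSB ID-8 cut replicate 3. Without it the difference was 0.75. DESeq2 called 0 of 9 chains in each of the 7 comparisons. The intervals were wide, since the sets differed so much. For cut against uncut in B6 control cultures the 95% interval ran from -2.57 to 2.49 for Lama1. It ran from -0.50 to 0.74 for Lamb2 and from -0.79 to 1.07 for Lama5. This fit has no term for the culture set, so it could not detect changes of several fold in Lama1. Within a set, over all treatments, Lama1 read 24.8 to 70.9 CPM in B6 set 1 and 13.7 to 19.6 in set 2. In set 3 it read 937.7 to 1274 and in set 4 889.5 to 1144. With the set as a block and all libraries kept, edgeR called 0 of 18106 genes for this comparison.
The culture sets pair these libraries. With the set as a block and the library labelled WSB ID-8 cut replicate 3 left out, 4.54% of 18046 genes were called for ID-8 in B6, and 2 chains with them, Lama2 (-0.88 ± 0.16, adjusted p = 0.00399) and Lama5 (-0.84 ± 0.21, adjusted p = 0.0289). With that library kept, the block called neither (adjusted p = 0.11 and 0.057). For ID-8 in WSB the block without that library called 2027 of 18046 genes and no chain. In uncut B6 cultures Lama2 read 40.2, 49.1, 27.5 and 20.2 CPM in control and 17.2, 37.4, 15.4 and 9.75 with ID-8, lower in 4 of 4 sets. Lama5 read 56.9, 19.5, 57.6 and 46.8 CPM in control and 21.1, 18.8, 32.7 and 22.5 with ID-8, also lower in 4 of 4 sets.

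Across stages, Lama2 and Lamb2 were called higher at both later stages in both strains. Lama4 was called higher in 3 of these 4 comparisons. In the other, regrowth in WSB, it missed the threshold (1.80 ± 0.78, adjusted p = 0.0541) and was called without regrowth replicate 1 (2.34, adjusted p = 0.013) and in DESeq2 (1.78, adjusted p = 0.0278). For axonal regrowth against progenitors the comparison was made within library number 16, where 57% of 18980 genes were called in B6 and 51.1% in WSB. In B6 5 of 9 chains were called. Lama2 rose from 0.671, 1.14 and 2.00 CPM in the 3 progenitor libraries to 20.2 to 49.1 in the 4 regrowth libraries (4.78 ± 0.86, adjusted p = 2.96e-05). Lama4 rose from 3.57, 6.80 and 7.20 to 50.5 to 95.6 CPM (3.51 ± 0.80, adjusted p = 0.000457), and Lamb2 from 51.0, 59.5 and 71.8 to 80.8 to 178.7 (1.20 ± 0.35, adjusted p = 0.00443). None of these 3 overlapped between stages. Lama5 fell (-1.76 ± 0.53, adjusted p = 0.00612) from 76.4, 155.4 and 245.3 CPM, and Lama3 (-1.25 ± 0.52, adjusted p = 0.0434) from 4.10, 7.55 and 15.4 CPM, but without progenitor replicate 6 neither was called (-1.33, adjusted p = 0.0588, and -0.64, adjusted p = 0.365). Lama3 was not called without regrowth replicate 1 or 2 either (adjusted p = 0.0889 and 0.101). In WSB 3 of 9 chains were called, all higher, Lama2 (3.18 ± 0.83, adjusted p = 0.00201), Lamb2 (1.80 ± 0.37, adjusted p = 0.000193) and Lama3 (1.72 ± 0.58, adjusted p = 0.0145). Lama3 lost its call without progenitor replicate 5 or regrowth replicate 2 (adjusted p = 0.0776 and 0.0564). The stage difference of Lama3 was thus positive in WSB and negative in B6, and the test of that difference gave 2.97 ± 0.78 (adjusted p = 0.0401), the 1 chain called among 2.1% of all genes. This call was lost when any one of 8 libraries was left out (2.37 to 3.13, adjusted p = 0.0506 to 0.188).

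Maturation and progenitor libraries share no library number, so whatever that number marks cannot be told apart from stage within this pair of stages. There 66% of 19564 genes were called in B6 and 66.8% in WSB. In B6 4 chains of 9 were higher, Lama2 (4.45 ± 0.52), Lamb3 (1.54 ± 0.37), Lamb2 (1.46 ± 0.28) and Lama4 (1.43 ± 0.50), and 3 were lower, Lama1 (-3.50 ± 1.11), Lamb1 (-2.19 ± 0.79) and Lama3 (-1.19 ± 0.44). Lama2 read 0.665 to 2.00 CPM in progenitors and 12.5 to 32.3 at maturation. Lama1 went from 57.5 to 211.9 CPM down to 8.35 to 12.7. In WSB 4 of 9 were called, all higher, Lama2 (4.95 ± 0.53), Lama3 (2.95 ± 0.43), Lama4 (2.63 ± 0.52) and Lamb2 (1.92 ± 0.28). A fit with the library number as a term ties the stages together only through the 4 regrowth libraries of WSB set 4. It called 62.2% of genes in B6 and 63.2% in WSB, with medians over all genes of 0.13 and 0.17. In B6 it called neither Lama4 (0.41, adjusted p = 0.642) nor Lamb3 (1.02, adjusted p = 0.0941), and it called Lama5 (-1.12, adjusted p = 0.0415) and Lamc1 (-1.95, adjusted p = 0.00517) lower. In WSB it also called Lama1 (-4.87, adjusted p = 0.000671) and Lamb1 (-2.21, adjusted p = 0.0234) lower. The 4 linking libraries read 118.9 to 1429 CPM of Lama1, against 21.4 to 58.5 in WSB sets 1 to 3 without the doubted library. Lamb1 read 140.9 to 857.0 there against 11.9 to 80.3, and Lamc1 346.6 to 1364 against 159.3 to 356.4. Per kb, WSB controls had 12.1 ± 5.07 CPM of Lama1 in progenitors and 3.29 ± 0.43 at maturation. Of Lamb1 they had 10.3 ± 2.02 and 11.4 ± 2.02. B6 controls had 50.9 ± 18.2 and 28.6 ± 9.02 of Lamc1. Per kb, Lamb1 fell from 1.42 to 4.43 times the level of Lamb2 in B6 control progenitors to 0.211 to 0.288 times at maturation, and in WSB from 0.754 to 1.41 to 0.211 to 0.414 times. Thus Lamb2 was the more abundant beta chain per kb in all control cultures at maturation. Cell markers changed with stage as well. Of 9 markers of mural cells and fibroblasts 7 were higher and 1 lower at maturation in B6 and 8 higher in WSB, and at regrowth 6 and 3 were higher. All 7 pluripotency markers were lower in B6 at both later stages. The part of these cells in the stage differences was not tested.

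Partners and receptors also changed with stage. Of 24 partners 12 were higher and 1 lower at regrowth than in B6 progenitors, led by Smoc2 (3.97), Col15a1 (5.88), a collagen of vessel and muscle basement membranes, Npnt (1.63) and Col4a4 (2.42). In WSB 11 were higher and 3 lower, with Smoc1 (1.43), Frem2 (2.12), Col4a5 (2.12) and Col15a1 (4.15) first. The strains' stage differences themselves differed for Smoc2 (-4.44) and Frem2 (2.17) among the partners, for Itga6 (1.77) among the receptors and for Dmd (1.13) among the linkers. Of 15 receptors 4 were higher and 4 lower in B6, with Rpsa (-1.04), Itgb4 (2.66), Sdc2 (2.27) and Itga1 (3.23) first, and 8 were higher and 2 lower in WSB, with Itgb4 (4.13), Sdc1 (-2.70), Rpsa (-1.05) and Sdc2 (2.21) first. Of 18 genes of dystroglycan glycosylation, which gives dystroglycan the sugar that laminin binds, 11 were higher and 2 lower in each strain. B4gat1 (1.93 in B6 and 1.88 in WSB) and Dolk (1.14 and 1.32) led in both, followed in B6 by Pomk (0.98) and B3galnt2 (-1.50) and in WSB by Pomt2 (0.98) and Pomgnt2 (1.45). Of 19 linkers 7 were higher and 5 lower in B6, and 8 higher and 1 lower in WSB. Sgcb (1.94 and 2.12), Sgcd (2.74 and 2.78) and Ptk2 (-1.05 and -0.92), which encodes focal adhesion kinase, were among the first 4 in both strains, with Dtna (1.66) in B6. Of 6 relatives 2 were higher and 1 lower in each strain, Lamc3 (2.83 and 2.67) and Ntng1 (1.94 and 1.67) higher, and Ntng2 (-0.88) lower in B6 and Ntn4 (-1.82) in WSB.

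At maturation 8 of 24 partners were higher and 10 lower than in B6 progenitors, and 13 higher and 7 lower in WSB. Col4a4 (5.95 in B6 and 6.92 in WSB), Col4a3 (6.99 and 6.06) and Agrn (-1.23 and -1.16), the organizer of synaptic basement membrane, were among the first 4 in both, with Smoc2 (3.35) in B6 and Sparc (3.52) in WSB. Of 15 receptors 7 were higher and 4 lower in B6, among them Sdc2 (2.72), Itga1 (3.99), the synaptic vesicle gene Sv2a (2.96) and Sdc1 (-2.26), and 9 higher and 2 lower in WSB, among them Sdc2 (3.28), Itga1 (4.28), Itgb4 (3.95) and Sdc4 (3.15). Glycosylation genes gave 7 higher and 2 lower of 18 in B6 (Large2 -5.82, B4gat1 1.49, Pomt1 -0.79 and Dpm1 1.42) and 10 higher and 2 lower in WSB (B4gat1 1.48, Large2 -3.84, Ispd 1.21 and Dolk 0.95). Linkers gave 8 higher and 2 lower of 19 in B6 (among them Sgcb 2.12, Dtna 2.22 and Sgca 6.42) and 12 higher and 1 lower in WSB (among them Sgcb 1.95, Ptk2 -1.25 and Dmd 2.03). Of 6 relatives 0 were called in B6, and in WSB Lamc3 (3.44) was higher and Ntng2 (-1.27) and Ntn1 (-0.99) lower.

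Genes that followed a chain over the 16 group means were ranked among 13321 genes by the Pearson correlation of log2(CPM + 1), as a description over groups that share stages, strains and library numbers. Lamb1 was most like Pdia5 (0.95), Lamc1 (0.95) and P3h1 (0.95), which modifies collagen. Lamc1 in turn was most like Lamb1, then Tek (0.94) and P3h1 (0.93). For Lama1 the closest were Fam111a (0.93), Pth1r (0.93) and Lipt2 (0.92), and for Lama4 they were Gxylt2 (0.95), Creb3l1 (0.94) and Col3a1 (0.94), a collagen of fibroblasts. Lama2 was closest to Pnma3 (0.98), Fbxo9 (0.98) and Cacng8 (0.98), and Lamb2 to Arpin (0.97), Ltbp3 (0.96) and Syap1 (0.96). Lama5 was closest to Elmo3 (0.95), Pxn (0.93) and Zfp976 (0.92), Lamb3 to Ppp1r15a (0.93), Cept1 (0.93) and Dstyk (0.93), and Lama3 to Ebpl (0.87), Echdc2 (0.87) and Ctbs (0.86). Within the family Lama1 correlated at 0.87 with Lamb1 and at 0.76 with Lamc1, and Lama2 at 0.86 with Lamb2. Lama1 and Lamb2 correlated at -0.60. Lama3 had the lowest best match of the family. Its called strain difference was negative in progenitors and positive at the 2 later stages.

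The genes lie apart in the genome (GRCm38). Lamc1 (153218922 to 153332786) and Lamb3 (193207699 to 193343878) are both on chromosome 1, and Lama2 (26980036 to 27619758) and Lama4 (38965515 to 39110188) on chromosome 10. Lama1 is on chromosome 17 (67697259 to 67822647), Lama3 on chromosome 18, Lama5 on chromosome 2 (180176373 to 180225859), Lamb1 on chromosome 12 (31265234 to 31329644) and Lamb2 on chromosome 9 (108479736 to 108490530). Sampled stretches of 50 bases of their longest transcripts matched no other transcript, except for 1.15% of Lama2 that is shared with the antisense gene Gm48084. Lama2 overlaps Gm48084 by 631 exonic bases and Lama3 overlaps the antisense gene Gm29200 by 197. Whether the counting used strand is not given in the sources used here, so reads from those overlaps cannot be told apart.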

How the data were processed

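Bulk polyadenylated RNA of 70 libraries in 16 groups was analysed, with 76 sequencing runs of which repeat runs of a library were summed. The deposited values are expected counts per gene, estimated by the authors and not normalized, of which 9.32% are not whole numbers. They were rounded after summing. The submitters' processing notes name Bowtie2, RSEM, featureCounts, limma and GRCm38, without roles. The kit was stranded, per the labels' protocols.

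Genes were named through GENCODE (37607 of 38924 identifiers had a symbol). Each stage was fitted in edgeR 4.0.16 (R 4.3.3) with TMM factors, filterByExpr and robust quasi-likelihood tests, with the library number of the titles as a covariate at the progenitor and regrowth stages, and p-values adjusted by Benjamini-Hochberg over all genes tested. Regrowth was set against progenitors within library number 16, and maturation against progenitors over all libraries. The steps were tested on simulated data. DESeq2 1.42.0, other scalings, no filter, left-out libraries and replicate blocks were tried. Intervals cover 95%. The genes named in each list are at most 4, those called with the smallest adjusted p. Some of these genes are counted but not reported here by name. The members, lists and tests were chosen with earlier results of these data known.

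The pairing check correlated deviations from group means. Libraries sharing a culture set or letter run correlated above 0.1 in 8 of 8 pairs in each strain at maturation. Between the strains this held in 25 of 32 pairs at maturation. At regrowth this held in 21 of 21 pairs in B6 and in 19 of 21 in WSB (19 of 19 without the library labelled WSB ID-8 cut replicate 3). Among progenitors it held in 3 of 3 pairs per strain in library number 12 and 2 of 3 in number 16.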

Additional observations from a re-analysis of the deposited data

Results flagged for a closer look

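Single libraries that lay far from the rest of their group by Dixon's test were found in 12 of 126 checks of a chain in a group of 4 or 6, where chance gives about 1 in 20. In the ID-8 cut cultures of WSB, replicate 4 was the high one for Lama1 (1429 CPM), Lamb1 (857.0) and Lamc1 (1364), and in WSB control cut cultures replicate 4 was high for Lama1 (265.0). These 2 libraries belong to WSB set 4, which read part of the way to B6. Lama4 was far below the group in WSB control uncut replicate 1 (2.51 CPM), a library of WSB set 1, and far above it in B6 control uncut replicate 2 (95.6). Lamb3 was high in WSB control uncut replicate 4 (1.82 CPM). Among progenitors the high values were Lama3 in B6 control replicate 6 (15.4 CPM), Lama2 in B6 ID-8 replicate 3 (1.23), Lama4 in WSB ID-8 replicate 5 (5.48) and Lamb1 in WSB ID-8 replicate 2 (236.6). At maturation Lama2 was high in B6 ID-8 replicate 2 (18.1 CPM).

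The strains' responses differed by test for 3 chains. The ID-8 response of Lama1 in progenitors was lower in WSB by a log2 difference of -2.05, that of Lama5 at maturation was less negative in WSB by 1.82, and the regrowth less progenitor difference of Lama3 was higher in WSB by 2.97.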

How the results depend on the processing

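Of 535 recomputed counts of called chains, all but 42 stayed within 1.5 times the value reported. Of 750 recomputed values for 44 calls of a single chain in a comparison, 61 lost the call and 0 changed sign. The same 9 chains recur among these calls. Alternatives on library totals, culture sets, doubted libraries and left-out libraries in the stage comparisons were chosen after seeing the data. For strain among progenitors (5 chains), library number 16 alone gave 2. For ID-8 in B6 progenitors (4), number 16 alone with culture sets as a replicate block gave 7. For ID-8 in WSB progenitors (2), no library term gave 1, number 12 or 16 alone 0, number 12 with the replicate block 0, number 16 with the culture-set block 1, and the culture-set block over both 4. For the difference of these responses (1), DESeq2 gave 3, no filter 0, no library term 0, number 12 or 16 alone 0, number 12 with the replicate block 0, number 16 with the culture-set block 5, and that block over both 4. With the culture-set block over both, Lamb1 (0.73, adjusted p = 0.0349) and Lama5 (-0.81, adjusted p = 0.0176) were also called for ID-8 in WSB progenitors. For the difference of responses it also called Lamb1 (-1.53, adjusted p = 0.00765), Lamc1 (-1.22, adjusted p = 0.0101) and Lama4 (-1.07, adjusted p = 0.0422), and for ID-8 in B6 Lama4 (0.82, adjusted p = 0.0113) and Lama2 (-0.74, adjusted p = 0.0317). At maturation, leaving out 1 library gave 2 to 6 chains for ID-8 in B6 (5), and for ID-8 in WSB (1) DESeq2 gave 3, library totals 2 and the replicate block 3. For strain at regrowth (2), DESeq2 gave 5, no library term 1, both sets of doubted libraries left out 1, and leaving out 1 library 0 to 3. ID-8 in B6 at regrowth (0) gave 2 with the replicate block and the library labelled WSB ID-8 cut replicate 3 left out, and 2 with WSB set 4 left out as well. Leaving out 1 library gave 3 to 5 for regrowth against progenitors in B6 (5), 2 to 4 in WSB (3) and 0 to 1 for the difference (1), for which no filter gave 0. Where no cause follows from fewer samples or genes, the cause was not tested. The block changed no other call count by over 1.5 times. The strain contrast at regrowth was not run with culture sets, which are nested in strain.

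Counts over all genes moved by over 1.5 times as follows. Strain among progenitors called 7843 genes, and 4213 and 2794 in numbers 12 and 16 alone. ID-8 in B6 progenitors called 7021, and 1379, 3880 and, with the replicate block in number 12, 2010. ID-8 in WSB progenitors called 1656, and 166, 2, 284, 1031 (number 16 with culture sets) and 3226 (culture sets). The difference called 555, and 1263 (DESeq2), 369 (no filter), 254 (no library term), 0, 0, 1, 2958 and 3446. At maturation the replicate block called 4608 for strain (2505), 4823 for ID-8 in B6 (2902), 2407 for ID-8 in WSB (999; DESeq2 1820) and 323 for the difference (78; DESeq2 340). Strain at regrowth called 2397, and 1590 with no library term. For regrowth comparisons with 0 calls, the replicate block called 221 for ID-8 in B6 and 563 in WSB, and 819 and 2027 without the doubted library (1445 and 1874 without WSB set 4 as well, and 2 for their difference). For cut against uncut that block called 1 gene in WSB control cultures, and without the doubted library 1 in B6 control, 272 in WSB control and 4 in WSB ID-8 cultures (2 in WSB control without set 4 as well). Without a block, first runs alone called 4 for ID-8 in WSB, and leaving out the doubted library and set 4 called 1 for ID-8 in B6. The stage difference between strains called 399, and 917 with DESeq2, 1264 over all libraries and 1573 with the library term. On library totals the median of all genes moved to -0.10 for ID-8 in B6 progenitors, and the calls for strain among progenitors split into 2554 higher and 4955 lower, against 3458 and 4385.

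Depth limits Lamb3 most, whose libraries began at 8 counts.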
